A study of Mus musculus with 12 samples.

Results

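Tgm2, Gulp1, Pde1a, Sncaip and Fhl1 are 5 genes of 14851 in the deposited expression tables, taken by symbol because their RNA stood out among the most consistent or largest increases in autophagy-deficient vascular tumor cells over control cells. They were selected on the RPKM values (reads scaled by transcript length and by the reads of the library, so that genes can be compared per length) of the same 12 libraries described here. Their levels against control are therefore given as a description without a test, and tests are given only for differences between the knockout groups, for relatives and pathway partners of the 5 genes, and for neighbouring genes. The cells were 562 cells, a line that immortalized spontaneously in culture after isolation from skin tumors of tamoxifen-treated Tsc1 f/f;Scl-Cre mice, so every group carried the Cre-driven loss of Tsc1 in endothelial cells and the resulting activity of the growth kinase complex mTORC1. The labels give the strain C57BL/6 and call the tissue lymphatic endothelial cells, and no animal age is used here. All 4 groups of 3 libraries were transduced with a LentiCRISPR v2 lentivirus, which delivers Cas9 and a guide RNA, and were selected with puromycin. The guide targeted EGFP in control cells, and Fip200 (Rb1cc1, a scaffold of the complex that starts autophagy), Atg5 or Atg7 (both needed to attach LC3 proteins to the autophagosome membrane) in the respective KO (knockout) cells. All libraries come from this 1 parental line. The study shows the Fip200 KO cells as separate clones without saying which library came from which. The study calls the KO samples independent replicates and its experiments in general biological repeats, but neither it nor the labels says what was separate about these libraries. Where that was technical, p-values measure only the spread between these libraries.

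Tgm2 encodes tissue transglutaminase, a calcium-dependent enzyme that cross-links proteins and, at the cell surface, binds fibronectin and integrins; endothelial cells are a known site of its expression. Gulp1 encodes an adaptor with a phosphotyrosine-binding domain that links engulfment receptors such as Lrp1 and stabilins to the uptake of dying cells. Pde1a encodes a phosphodiesterase that is switched on by calcium and calmodulin and breaks down cyclic GMP and cyclic AMP. Sncaip encodes synphilin-1, which binds the ubiquitin ligases parkin and Siah. Fhl1 encodes a protein built of LIM domains, zinc-binding folds that dock other proteins on actin and titin.

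The regulatory sequence just before the RefSeq start sites is shown for the genes that were matched, together with that of Pde1b, the closest relative of Pde1a, which moved the other way. Of the 5 genes, 3 (Gulp1, Pde1a and Fhl1) were matched, with 7 start sites in all. Windows of 1 chromosome were left out before matching and of the figures over all windows, so a gene not matched need not lack an entry. Each line gives the 250 bases before the start, 5′ to 3′ on the gene's strand, from RefSeq on GRCm38.p6. Capitals mark matches to 6 motifs, each searched on either strand, and no matches overlapped. The TATA box was searched as TATAAA and the E-box as CACGTG. The AP-1 site was searched as TGANTCA and the STAT site as TTCNNNGAA. The CCAAT box was searched by those letters and the GC box as GGGCGG.
Gulp1, chr1:44551421-44551670, plus strand: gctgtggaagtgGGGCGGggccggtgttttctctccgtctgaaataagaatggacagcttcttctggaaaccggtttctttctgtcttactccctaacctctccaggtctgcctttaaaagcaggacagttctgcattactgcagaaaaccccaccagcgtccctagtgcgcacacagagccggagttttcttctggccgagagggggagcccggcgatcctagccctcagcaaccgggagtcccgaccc
Pde1a, start 1 of 4, chr2:80129413-80129662, minus strand: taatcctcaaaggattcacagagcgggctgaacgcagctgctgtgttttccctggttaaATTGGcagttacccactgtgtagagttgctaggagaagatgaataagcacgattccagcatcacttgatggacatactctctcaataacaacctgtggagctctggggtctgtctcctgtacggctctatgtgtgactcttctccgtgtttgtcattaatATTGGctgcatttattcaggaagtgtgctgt
Fhl1, start 1 of 2, chrX:56779433-56779682, plus strand: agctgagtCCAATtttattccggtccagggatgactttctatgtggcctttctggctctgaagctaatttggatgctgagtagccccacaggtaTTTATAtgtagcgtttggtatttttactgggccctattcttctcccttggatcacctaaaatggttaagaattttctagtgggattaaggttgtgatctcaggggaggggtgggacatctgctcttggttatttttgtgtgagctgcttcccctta
Fhl1, start 2 of 2, chrX:56786277-56786526, plus strand: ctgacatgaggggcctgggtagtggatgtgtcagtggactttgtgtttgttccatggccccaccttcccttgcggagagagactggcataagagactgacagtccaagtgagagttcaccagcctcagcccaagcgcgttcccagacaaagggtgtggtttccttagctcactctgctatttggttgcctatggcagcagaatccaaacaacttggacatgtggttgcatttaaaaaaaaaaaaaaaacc
Pde1b, start 1 of 3, chr15:103502784-103503033, plus strand: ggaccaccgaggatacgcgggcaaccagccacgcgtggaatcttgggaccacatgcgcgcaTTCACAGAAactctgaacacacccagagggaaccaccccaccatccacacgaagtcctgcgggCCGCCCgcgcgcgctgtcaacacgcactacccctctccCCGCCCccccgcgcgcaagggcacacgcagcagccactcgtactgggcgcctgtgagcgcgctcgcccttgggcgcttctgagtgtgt

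None of the 6 motifs was found in the windows of all 3 matched genes. Gulp1 held a GC box 238 bases before the start, and its window was 56.8% G and C with 12 CpG dinucleotides. Pde1a start 1 held CCAAT boxes 191 and 31 bases before the start, at 46% G and C with 5 CpG. Of its other starts, not shown, start 2 held a TATA box 96 bases before it, start 4 a TATA box 236 and a CCAAT box 155 bases before it, and start 3 none. Fhl1 start 1 held a CCAAT box 242 bases and a TATA box 156 bases before the start, at 44.4% G and C, and its other start held none of the 6 motifs. The median over 32851 RefSeq windows was 52.4% G and C with 6 CpG, so Gulp1 lay above and the shown windows of Pde1a and Fhl1 lay below it. The window at Pde1b start 1 was 67.2% G and C with 26 CpG and held GC boxes 126 and 88 bases and a STAT-site match 189 bases before the start. Its starts 2 and 3, not shown, were 44.8% and 50% G and C with 0 and 1 CpG and held none of the 6 motifs. Over all windows 33.8% held a CCAAT box, 32.7% a GC box, 12.4% a TATA box, 7.02% a STAT site, 6.75% an AP-1 site and 6.02% an E-box. None of these matches is a measured binding site, and RPKM per gene does not say which start was used.

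The libraries held 17264989 to 23627944 reads on genes, a spread of 1.37 times. Of 12 endothelial marker genes all were listed and 11 reached an RPKM of 1 in at least one library, with Pecam1 between 265 and 539 and Cdh5 between 116 and 805, whereas Vwf did not pass 0.809. Their summed RPKM was 1220 to 3048 in control, 2221 to 2831 for Fip200 KO, 2917 to 3418 for Atg5 KO and 2387 to 3255 for Atg7 KO libraries. These sums overlapped with control. Single endothelial markers did not, with Flt1 at 16.1 to 34.1 in control and at most 15.9 in KO libraries. Esam went the other way, at 69.9 to 131 in control and at least 143 in KO libraries. Of the lymphatic markers Lyve1 lay between 60.6 and 393 and Flt4 between 31.7 and 101, but Prox1, the factor that defines lymphatic identity, reached at most 5.79. The leukocyte markers Ptprc, Adgre1 and Csf1r stayed at or below 0.179, while Cd68 ranged from 6.95 to 263 and Lyz2 from 0.139 to 26.4. The summed RPKM of the 6 listed lymphatic markers was 271 to 362 in control, 402 to 525 for Atg5 KO and 381 to 516 for Atg7 KO libraries, without overlap, and 220 to 821 for Fip200 KO. That of the 5 listed leukocyte markers was 52.9 to 111 in control, 19.3 to 265 for Fip200 KO, and lower without overlap at 15.0 to 16.7 for Atg5 KO and 13.9 to 27.3 for Atg7 KO. The 3 listed epithelial markers summed to 6.28 to 10.8 in control, 0.691 to 6.27 for Fip200 KO, 1.91 to 5.94 for Atg5 KO and 0.482 to 6.31 for Atg7 KO. The summed RPKM of 11 listed mesenchymal markers ran from 24.0 to 226 in control, 24.0 to 294 for Fip200 KO, 120 to 250 for Atg5 KO and 76.2 to 413 for Atg7 KO libraries, with Col1a1 at or below 0.476 throughout. Single members moved in opposite directions, with Thy1 at 2.36 to 17.7 in control and 71.2 to 346 in all KO libraries except Fip200 KO replicate 3 (0.21), and Dcn at 56.9 and 15.2 in control replicates 2 and 3 and at most 0.989 elsewhere. Col3a1 (143 and 23.1) and Pdgfra (9.02 and 2.26) were also high in control replicates 2 and 3, against at most 34.3 and 0.32 in KO libraries. The mesenchymal sums overlapped between control and each KO group. The part of these marker levels in the results below was not tested. Of the targeted genes, Rb1cc1 had RPKM values of 5.18, 6.84 and 2.06 for Fip200 KO against 6.43 to 8.27 in control libraries, Atg5 8.53, 15.5 and 12.6 for Atg5 KO against 10.6 to 14.2 in control, and Atg7 5.40, 2.64 and 8.34 for Atg7 KO against 18.4 to 25.0 in control. Only Atg7 RNA in Atg7 KO cells lay wholly below control, although it also lay at 9.94 to 11.9 for Atg5 KO and 8.23 to 38.3 for Fip200 KO libraries. Small edits made by Cas9 need not lower RNA, so RNA does not check the Fip200 and Atg5 labels. Library names began with FY (control replicate 1 and all Fip200 KO), JG (control replicates 2 and 3, Atg5 KO replicates 1 and 2) or Yang (Atg5 KO replicate 3 and all Atg7 KO). The meaning of these prefixes is not stated.

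A pair of libraries stood apart for the raised genes, control replicate 1 and Atg7 KO replicate 2. Control replicate 1 had the highest control value of Gulp1, Pde1a, Sncaip and Fhl1. Atg7 KO replicate 2 had the lowest KO value of Tgm2, Gulp1 and Fhl1 and the highest value of any library for Pde1a and Sncaip. The differences from control are therefore also given without them. The 3 comparisons with control share the same 3 control libraries, so they are not independent of each other.

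Tgm2 (gene ID 21817) had the highest mean RPKM of the 5 genes in control cells, with values of 2.29, 4.45 and 2.12 in control replicates 1, 2 and 3. It stood at 22.9, 26.5 and 16.8 for Fip200 KO, at 10.8, 10.7 and 18.8 for Atg5 KO and at 29.0, 6.87 and 29.9 for Atg7 KO libraries. Every KO library lay above every control library, the narrowest gap being 1.55 times between Atg7 KO replicate 2 and control replicate 2. The transcript moved from above 33.5% to 42.5% of listed genes in control libraries to above 53.0% to 81.8% in KO libraries. The mean RPKM was 2.95 ± 1.30 (SD, n = 3) in control, 22.1 ± 4.89 for Fip200 KO, 13.4 ± 4.62 for Atg5 KO and 21.9 ± 13.1 for Atg7 KO cells. On the log2(RPKM + 0.5) scale, which understates changes of genes near 0.5, the difference from control was 2.75 for Fip200 KO, 2.03 for Atg5 KO and 2.50 for Atg7 KO cells. Without Atg7 KO replicate 2 the last of these was 3.18, and without control replicate 1 the 3 differences were 2.62, 1.90 and 2.38.

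Gulp1 (gene ID 70676), the engulfment adaptor, was low in control cells, with an RPKM of 0.744, 0.455 and 0.629. It reached 5.93, 4.44 and 3.11 for Fip200 KO, 5.38, 3.67 and 10.2 for Atg5 KO and 8.54, 1.88 and 5.29 for Atg7 KO libraries. No KO library overlapped with control, and the lowest, Atg7 KO replicate 2, was 2.52 times the highest control library. Group means were 0.609 ± 0.146 (SD, n = 3) in control, 4.49 ± 1.41, 6.41 ± 3.38 and 5.24 ± 3.33 in Fip200, Atg5 and Atg7 KO cells. The log2 differences from control were 2.14, 2.54 and 2.18 in that order. They were 2.23, 2.62 and 2.27 without control replicate 1, and the Atg7 KO value was 2.71 without its replicate 2.

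Pde1a (gene ID 18573), the calmodulin-dependent phosphodiesterase, had RPKM values of 0.913, 0.421 and 0.433 in control libraries. It stood at 6.07, 6.30 and 2.97 for Fip200 KO, at 3.53, 2.15 and 11.7 for Atg5 KO and at 9.91, 28.3 and 7.45 for Atg7 KO libraries. Groups did not overlap with control, and even the lowest Atg7 KO library was 8.16 times the highest control library. The mean was 0.589 ± 0.281 (SD, n = 3) in control, 5.11 ± 1.86 for Fip200 KO, 5.78 ± 5.14 for Atg5 KO and 15.2 ± 11.4 for Atg7 KO cells. Within groups the spread was wide, with the highest library at 5.43 times the lowest in Atg5 KO and 3.8 times in Atg7 KO cells. The log2 differences from control were 2.33, 2.25 and 3.65. They were 2.53, 2.45 and 3.85 without control replicate 1. Without Atg7 KO replicate 2, the highest library, the Atg7 KO value was 3.09, and without Atg5 KO replicate 3 the Atg5 KO value was 1.61.

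Sncaip (gene ID 67847), the gene of synphilin-1, had the lowest single value of the 5 genes and the largest differences from control. The control libraries differed widely, at an RPKM of 3.23, 0.159 and 0.0254, which are 244, 15 and 2 reads. The KO libraries held 13, 17.2 and 21.7 for Fip200 KO, 17.9, 16.5 and 19.0 for Atg5 KO and 11, 44.9 and 10 for Atg7 KO cells. All KO libraries were at least 3.11 times the highest control library. Control replicate 1 was 20.3 times the control median, whereas Atg5 KO libraries spread by 1.15 times. Group means were 1.14 ± 1.81 (SD, n = 3) in control and 17.3 ± 4.35, 17.8 ± 1.27 and 22.0 ± 19.9 in Fip200, Atg5 and Atg7 KO cells. The log2 differences were 4.0, 4.07 and 4.02, and without control replicate 1 they were 4.89, 4.95 and 4.91. Without Atg7 KO replicate 2 the Atg7 KO value was 3.34.

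Fhl1 (gene ID 14199), the LIM protein, was the one gene of the 5 whose KO and control values overlapped. Its RPKM was 2.87, 0.40 and 0.188 in control, 20.5, 13.3 and 7.11 for Fip200 KO, 10.2, 14.3 and 7.54 for Atg5 KO and 10.4, 2.85 and 10.4 for Atg7 KO libraries. Atg7 KO replicate 2 lay just below control replicate 1, at 0.994 times its value, and the other 8 KO libraries lay above all controls. The mean was 1.15 ± 1.49 (SD, n = 3) in control, 13.7 ± 6.72 for Fip200 KO, 10.7 ± 3.43 for Atg5 KO and 7.88 ± 4.36 for Atg7 KO cells. The log2 differences from control were 3.35, 3.08 and 2.53. They were 4.05, 3.78 and 3.22 without control replicate 1, and the Atg7 KO value was 3.09 without its replicate 2.

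**Figure D1:**
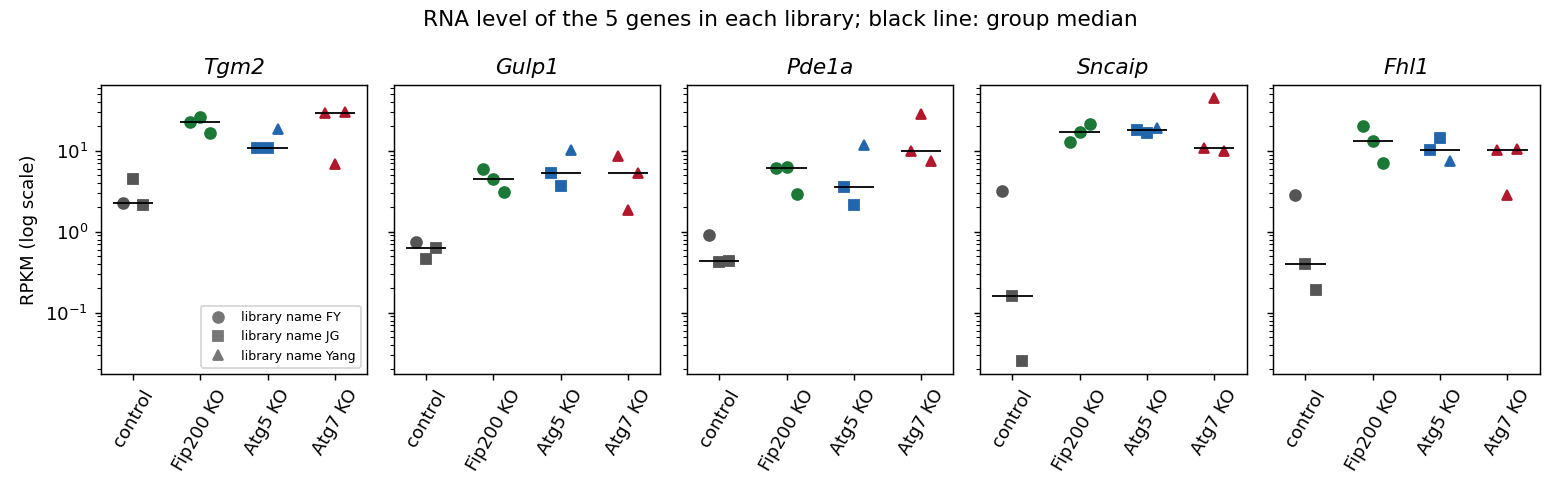
RPKM on a log scale (vertical axis) of the 5 genes in each of the 12 libraries by group (horizontal axis), with point shape giving the library-name prefix and the black line the group median. KO points lie above control points in every panel except Fhl1, where Atg7 KO replicate 2 (2.85) meets control replicate 1 (2.87).

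Among 11803, 11833 and 11784 genes tested in Fip200, Atg5 and Atg7 KO against control, the 5 genes ranked between 3 and 33, 6 and 54, and 3 and 34 from the highest log2 difference. All 5 were free of overlap with control in Fip200 KO and Atg5 KO cells and 4 of 5 for Atg7 KO cells, where 11.7%, 28.4% and 19.2% of tested genes lay wholly above control. Over all 3 comparisons 6% of 11608 genes tested in each did so. These ranks and counts come from the contrasts that chose the genes, and nothing is read from them.

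The library-name prefix moves partly with the groups, so the levels were also compared within prefixes. Within FY, the 3 Fip200 KO libraries exceeded control replicate 1 by 2.99 for Tgm2, 1.97 for Gulp1, 1.93 for Pde1a, 2.23 for Sncaip and 1.95 for Fhl1 on the log2 scale. Within JG, Atg5 KO replicates 1 and 2 exceeded control replicates 2 and 3 by 1.64 for Tgm2, 2.25 for Gulp1, 1.82 for Pde1a, 4.91 for Sncaip and 4.0 for Fhl1. The direction within prefixes follows from the choice of the genes, since Fip200 and Atg5 KO libraries did not overlap with control at all. The size for Sncaip and Fhl1 was smaller within FY and larger within JG. Within Yang there was no control library, so for Atg7 KO the prefix and the knockout could only be separated through the other groups. With the prefix as a term over 12 libraries, the Atg7 KO differences were 1.61 for Tgm2, 1.15 for Gulp1, 1.95 for Pde1a, 4.76 for Sncaip and 3.87 for Fhl1.

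**Figure D2:**
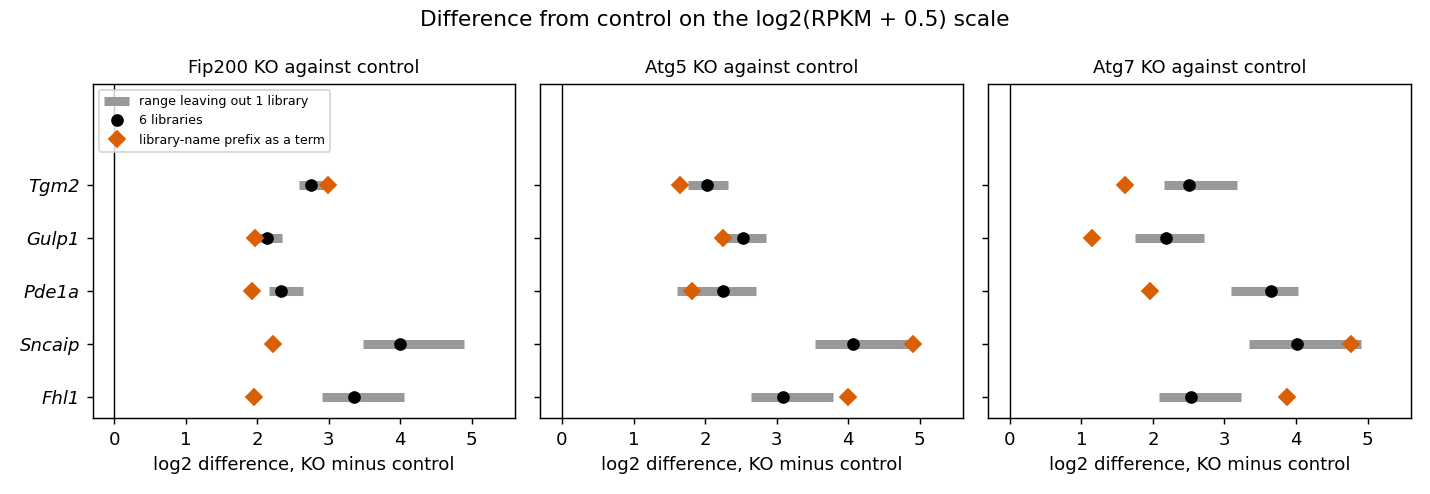
Difference from control on the log2(RPKM + 0.5) scale (horizontal axis) for the 5 genes in the 3 KO groups. Black points are from the 6 libraries of a comparison, grey bars span the values when 1 library is left out, and orange diamonds take the library-name prefix as a term. All values are above 0, which follows largely from the choice of the genes, and the orange diamond lies far from the black point for Sncaip and Fhl1 in Fip200 KO (2.23 and 1.95) and for Pde1a and Gulp1 in Atg7 KO (1.95 and 1.15), all lower, and for Fhl1 in Atg7 KO (3.87), which is higher.

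Whether the 5 genes differed among the knockouts was tested between KO groups, with limma in one fit of 12 libraries and 12233 genes. This contrast did not itself choose the genes, but the choice used the same KO libraries. Picking consistent rises over control may favour small differences between KO groups, so these tests are not independent of the choice. None of the 15 differences passed an adjusted p of 0.1, and the share of all genes called was 0% in each pair (0 called, with 927, 916 and 562 genes at an unadjusted p under 0.05). Without Fip200 KO replicate 3, however, the comparison with Fip200 KO called 300 genes for Atg5 KO and 402 for Atg7 KO, and leaving out any other library gave at most 4. None of the 5 genes was called in any of these fits. Pde1a came nearest. It was 1.40 higher on the log2 scale in Atg7 KO than in Atg5 KO cells (95% interval 0.13 to 2.68, limma adjusted p = 0.9999) and 1.32 higher than in Fip200 KO cells (0.04 to 2.59, limma adjusted p = 0.655). All 3 Atg7 KO libraries lay above all 3 Fip200 KO libraries for Pde1a, which 3.86% of tested genes also showed. No other of the 15 differences had a first group wholly above the second, a pattern held by 8.44% of genes for Atg5 KO over Fip200 KO and 5.38% for Atg7 KO over Atg5 KO. With the prefix term the difference of Pde1a was 0.14 from Atg5 KO and 0.026 from Fip200 KO cells, and within the Yang libraries Atg7 KO and Atg5 KO overlapped. Without Atg7 KO replicate 2 these differences were 0.85 and 0.76, and without Atg5 KO replicate 3 the first was 2.03, none of them called.

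For the other genes the intervals were wide. Tgm2 was −0.72 for Atg5 KO against Fip200 KO (−1.80 to 0.36) and 0.48 for Atg7 KO against Atg5 KO cells (−0.60 to 1.56). Gulp1 was 0.40 for Atg5 KO against Fip200 KO (−0.62 to 1.42) and 0.04 for Atg7 KO against Fip200 KO (−0.98 to 1.06). Sncaip had the smallest differences, between −0.05 and 0.06, yet its intervals reached from −1.57 to 1.59. With the prefix term Sncaip was 2.68 higher in Atg5 KO and 2.54 higher in Atg7 KO than in Fip200 KO cells (limma adjusted p = 0.93 and 0.9998), beyond those intervals and not called. Fhl1 was −0.82 in Atg7 KO against Fip200 KO (−2.21 to 0.56) and −0.56 against Atg5 KO (−1.94 to 0.83). With the prefix term the Fhl1 differences of Atg5 KO and Atg7 KO from Fip200 KO turned positive, beyond their intervals, and were not called. The signs of Gulp1 in Atg7 KO against Fip200 KO and of Tgm2 in Atg7 KO against Atg5 KO turned as well. These tests could not separate the groups, and the intervals leave room for differences of about the sizes at their ends, so similar action of the 3 knockouts is not shown.

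**Figure D3:**
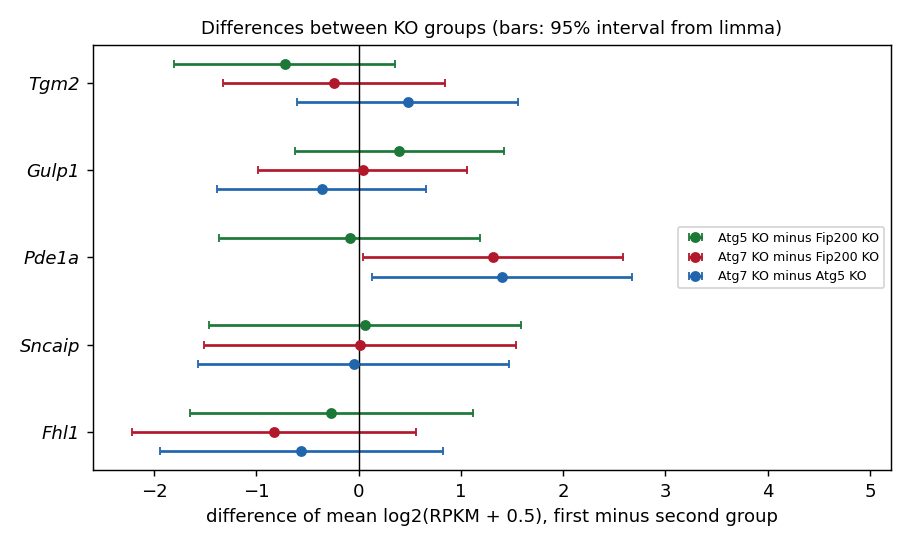
Differences between KO groups in mean log2(RPKM + 0.5) (horizontal axis, first minus second group) for the 5 genes, with bars for the 95% interval from limma over 12 libraries. Only the bars of Pde1a for Atg7 KO against the other KO groups lie clear of 0 (0.04 to 2.59 and 0.13 to 2.68), neither passed after adjustment, and a fit that includes the library-name prefix puts these differences at 0.026 and 0.14.

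Pde1b, the paralog of Pde1a with the same dependence on calmodulin, moved in the opposite direction. Its RPKM was 1.91, 2.52 and 3.30 in control, 0.440, 0.257 and 0.174 for Fip200 KO, 0.282, 0.384 and 0.0252 for Atg5 KO and 0.0947, 0.374 and 0.214 for Atg7 KO libraries. All 9 KO libraries lay below all 3 controls, and Pde1b was among the 139 genes (1.2% of those tested in all 3 comparisons) called lower in each. Pde1b fell by 1.95 on the log2 scale in Fip200 KO (limma adjusted p = 0.0395), by 2.08 for Atg5 KO (limma adjusted p = 0.00538) and by 2.07 for Atg7 KO cells (limma adjusted p = 0.00967). Pde1b passed the filter on low values, an RPKM of 0.5 in 3 libraries, only through the 3 control libraries, so a gene like it had to be lower in KO cells to be tested, and it could not be refitted without a control library. Without the filter the limma adjusted p was 0.0495, 0.00748 and 0.0155. The share of genes called lower was 1.64%, 6.94% and 6.81% in the 3 comparisons. Without Fip200 KO replicate 2 the Fip200 KO call was lost (−1.93, limma adjusted p = 0.129), as with the prefix term (−1.62, limma adjusted p = 0.171). The prefix term also ended the Atg7 KO call (−1.57, limma adjusted p = 0.321) and not the Atg5 KO call (−2.02, limma adjusted p = 0.0127). Per library the ratio of Pde1a to Pde1b RPKM was 0.131 to 0.478 in control and 5.59 to 105 in 8 KO libraries, a description that includes the chosen gene Pde1a. In Atg5 KO replicate 3 Pde1b had 2 reads, too few for a ratio. The summed RPKM of the pair was 2.83, 2.94 and 3.73 in control and 2.53 to 28.7 in KO libraries, and those ranges overlapped. Pde1c, the remaining member of the subfamily, did not exceed 0.135 in any library.

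**Figure D4:**
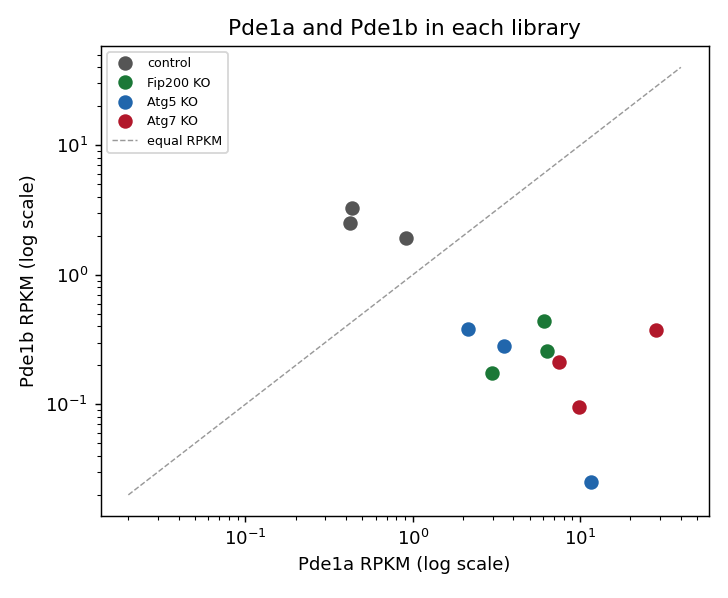
Pde1b RPKM (vertical axis, log scale) against Pde1a RPKM (horizontal axis, log scale) in the 12 libraries, coloured by group, with a dashed line at equal RPKM. The 3 control libraries sit above the line and the 9 KO libraries below it, at Pde1a to Pde1b ratios of 0.131 to 0.478 in control and 5.59 to 105 in the 8 KO libraries with more than 2 reads of Pde1b.

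Among the other phosphodiesterases, which degrade cyclic nucleotides with different specificities, 17 of 18 were listed and 10, 11 and 10 tested. Pde1b was the single one called in Fip200 KO (0 higher, 1 lower), and 4 rose and 1 fell in Atg5 KO and 1 rose and 2 fell in Atg7 KO cells, where 0.347%, 4.31% and 3.29% of all tested genes rose. The median difference of the list was −0.06, 0.22 and −0.06 beside 0.02, 0.06 and −0.01 over all tested genes. The cyclic AMP enzyme Pde4a rose by 1.15 for Atg5 KO (limma adjusted p = 0.0169) and by 1.59 for Atg7 KO cells (limma adjusted p = 0.0243). Pde7b rose by 1.5 for Atg5 KO (limma adjusted p = 0.0533) and Pde4d fell by 1.01 for Atg7 KO cells (limma adjusted p = 0.0907). Pde2a and Pde4b also rose in Atg5 KO cells, by 1.08 and 1.00 (limma adjusted p = 0.0215 and 0.00734), and are named after their values were seen. Pde2a fell short of the fold required without control replicate 2 (0.82), and Pde4b without control replicate 1 (0.97) or 2 (0.89) or Atg5 KO replicate 1 (0.98) or 2 (0.97). Leaving out Atg5 KO replicate 1 or 3 ended the call of Pde7b (1.60 and 1.18), leaving out control replicate 3 brought Pde4a in Atg5 KO below the fold required (0.91), and the call of Pde4d did not survive leaving out any 1 library except Atg7 KO replicate 2.

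A further list held genes that make, sense or act with cyclic nucleotides and calmodulin. Of 28 named, 23 were listed, and among 15, 16 and 16 tested 0 were called in Fip200 KO, 3 were lower in Atg5 KO and 2 were lower in Atg7 KO cells, beside 1.64%, 6.94% and 6.81% of all tested genes called lower. None was called higher, against 0.347%, 4.31% and 3.29% of all tested genes, so that with so few genes nothing is read from it. Their median was −0.14, −0.06 and −0.29. Npr2, the receptor guanylate cyclase for C-type natriuretic peptide, fell by 1.38 for Atg5 KO (limma adjusted p = 0.0345) and by 2.15 for Atg7 KO cells (limma adjusted p = 0.00974). The adenylate cyclase gene Adcy9 fell by 1.16 and the protein kinase A regulatory subunit gene Prkar2b by 1.21 for Atg5 KO cells (limma adjusted p = 0.00635 and 0.0055), and the catalytic subunit gene Prkaca fell by 1.04 for Atg7 KO cells (limma adjusted p = 0.0202). Just short of the fold required were Prkaca in Atg5 KO (−0.99, limma adjusted p = 0.00657) and Prkar2b in Atg7 KO cells (−0.97, limma adjusted p = 0.0164). Adcy9 was −0.91 in Atg7 KO cells (limma adjusted p = 0.107), not called. Without Atg5 KO replicate 3 the value of Npr2 in Atg5 KO was −0.93, and without control replicate 2 or Atg7 KO replicate 2 that of Prkaca in Atg7 KO was −0.93 and −0.95, each short of the fold required. The weakest value of Adcy9 in Atg5 KO among the alternatives was −0.83, also short of it. The prefix term ended the calls of Adcy9 (−1.20, limma adjusted p = 0.139), Prkar2b (−1.41, limma adjusted p = 0.115) and Npr2 (−0.88 and −0.74) and that of Prkaca in Atg7 KO cells (−1.01, limma adjusted p = 0.328).

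Of 8 relatives of Tgm2 in its family 4 were listed and 2 tested, and none was called higher. Over all tested genes 0.347%, 4.31% and 3.29% rose and 1.64%, 6.94% and 6.81% fell in the 3 comparisons, so with 2 genes nothing is read from the count. Tgm3 stood at an RPKM of 1.34, 1.32 and 3.25 in control and 0.349, 0.0529 and 0.106 for Atg7 KO libraries, without overlap, and fell by 1.82 on the log2 scale in Atg7 KO cells (limma adjusted p = 0.0229, and 0.72 with the prefix term). In that comparison it passed the filter only through the 3 control libraries, and without the filter the limma adjusted p was 0.0323. Its differences were −1.61 for Fip200 KO and −0.76 for Atg5 KO cells, not called. Tgm4 had differences of 0.61, 0.25 and 0.42, not called, at 2.76 to 6.16 RPKM over all libraries. Tgm1 reached at most 0.732 and Epb42 at most 0.186.

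Of 16 matrix, integrin and growth factor genes known as substrates or partners of transglutaminase, all were listed and 13 tested. None was called in Fip200 KO, 1 rose and 2 fell in Atg5 KO, and 1 rose and 3 fell in Atg7 KO cells, where 0.347%, 4.31% and 3.29% of all tested genes rose and 1.64%, 6.94% and 6.81% fell. The list median was −0.44, −0.26 and −0.62 beside 0.02, 0.06 and −0.01 over all tested genes. The gene that rose was Tgfb2, a transforming growth factor whose latent form binds the matrix. Tgfb2 had RPKM values of 2.37, 1.22 and 0.428 in control, 3.11, 2.16 and 3.99 for Atg5 KO and 8.14, 10.3 and 2.88 for Atg7 KO libraries, which overlapped with control in Atg5 KO and not in Atg7 KO cells. It rose by 1.08 (limma adjusted p = 0.0935) and 2.03 (limma adjusted p = 0.051) in these groups. The calls rested on single libraries, since the Atg5 KO call was lost without any 1 library except control replicate 1 (values of 0.66 to 1.28) and the Atg7 KO call without control replicate 2 or 3 or Atg7 KO replicate 1 (2.06, 1.61 and 1.86). Tgfb1 and Ltbp3, which encodes a binding protein of latent transforming growth factor, fell by 1.09 and 1.04 in Atg7 KO cells (limma adjusted p = 0.0307 and 0.0557). Sdc2, a cell-surface proteoglycan gene named after its values were seen, fell by 1.02 for Atg5 KO and 1.10 for Atg7 KO cells (limma adjusted p = 0.049 and 0.0585). It was no longer called in Atg5 KO without control replicate 2 (−0.65) or Atg5 KO replicate 1 (−1.07) or 2 (−0.91), nor in Atg7 KO without control replicate 2 (−0.73) or 3 (−1.23) or Atg7 KO replicate 1 (−1.17) or 3 (−1.04). Tgfb1 was no longer called without control replicate 3 (−0.97), Atg7 KO replicate 1 (−1.04) or replicate 2 (−0.96), nor Ltbp3 without control replicate 2 (−0.71) or 3 (−1.20) or Atg7 KO replicate 1 (−0.96) or 3 (−1.06).

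For Gulp1, the 27 other engulfment genes on the list comprised receptors, bridging ligands and the Rac pathway, of which 24 were listed and 20 tested. In Fip200 KO 0 were called, in Atg5 KO 2 rose and 4 fell, and in Atg7 KO 1 rose and 2 fell, where 4.31% and 3.29% of all tested genes rose and 6.94% and 6.81% fell. The median was −0.34, −0.39 and −0.27. Itgb5, which pairs with the alpha V integrin in uptake, fell by 2.65 for Atg5 KO and 2.75 for Atg7 KO cells (limma adjusted p = 0.0543 and 0.0627). The bridging ligand Gas6 fell by 1.51 and 2.27 (limma adjusted p = 0.0579 and 0.0458). Lrp1, a receptor to which the Gulp1 protein binds and which is on the transglutaminase list as well, fell by 2.63 in Atg5 KO cells (limma adjusted p = 0.067), and the receptor kinase gene Tyro3 by 1.60 (limma adjusted p = 0.0229). Lrp1 had differences of −0.44 and −2.20 in Fip200 KO and Atg7 KO cells, not called, and the first was 1.25 with the prefix term. The genes that rose were the receptor kinase gene Mertk, by 1.04 for Atg5 KO and 1.30 for Atg7 KO cells (limma adjusted p = 0.0642 and 0.0539), and the lipid exporter gene Abca1, by 1.21 for Atg5 KO cells (limma adjusted p = 0.0137), both named after their values were seen. The prefix term ended the calls of Tyro3 (−2.09, limma adjusted p = 0.185) and Abca1 (1.05, limma adjusted p = 0.645). Each of the other calls was lost when at least 1 single library was left out: for Itgb5 control replicate 3 or Atg5 KO replicate 2 or 3 (−2.54, −2.64 and −2.41) and Atg7 KO replicate 1 or 3 (−2.84 and −2.69), and for Lrp1 control replicate 2 or 3 or Atg5 KO replicate 1 or 2 (−1.77, −2.65, −2.42 and −2.21). Gas6 lost its call in Atg5 KO cells without any 1 of 5 libraries, all but Atg5 KO replicate 2 (−1.60 to −0.98), and in Atg7 KO cells without any 1 control library or Atg7 KO replicate 1 (−2.36 to −1.99). Mertk lost it without control replicate 2 or 3 or Atg5 KO replicate 1 or 2 (0.67 to 1.06) and without control replicate 2 or 3 or Atg7 KO replicate 1 or 3 (0.92 to 1.32). Of 9 other endocytic adaptors with a related domain or partner role, 8 were tested, and Acap1 and Numbl fell by 1.07 and 1.08 in Atg5 KO cells (limma adjusted p = 0.0156 and 0.0367) while 0 were called in the other groups. Of all genes tested 6.94% fell in Atg5 KO, so 2 of 8 is a small count to read against it. Numbl fell short of the fold required without control replicate 2 (−0.81) or Atg5 KO replicate 3 (−0.87). The weakest value of Acap1 in Atg5 KO among the alternatives was −0.70, also short of it. The median of these adaptors was −0.34, −0.41 and −0.58.

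The partners of Sncaip were 19 genes of the parkin and ubiquitin system, of which 17 were listed and 16 tested. In Fip200 KO 0 rose and 1 fell, in Atg5 KO 2 rose and 1 fell, and in Atg7 KO 1 rose and 0 fell, with medians of −0.01, 0.06 and −0.05. The shares over all tested genes were 0.347%, 4.31% and 3.29% rising and 1.64%, 6.94% and 6.81% falling. Uchl1 encodes a ubiquitin hydrolase that is abundant in neurons. Its RPKM was 9.75, 7.97 and 10.3 in control, 47.6, 16.4 and 32.9 for Fip200 KO, 115, 110 and 36.3 for Atg5 KO and 47.6, 71.6 and 43.3 for Atg7 KO libraries, so all KO libraries lay above control. It rose by 2.99 for Atg5 KO (limma adjusted p = 0.00631) and 2.45 for Atg7 KO cells (limma adjusted p = 0.00618), calls that held without any 1 library and with the prefix term. Its difference in Fip200 KO cells was 1.62 (limma adjusted p = 0.12), and 2.03 and called without Fip200 KO replicate 2 (limma adjusted p = 0.089). Sncg fell by 1.46 in Atg5 KO cells (limma adjusted p = 0.00372, and 0.73 with the prefix term), and in the other KO groups it ranged from 0.0749 to 52.2 RPKM against 14.5 to 16.5 in control. The ubiquitin ligase gene Siah1a, whose product ubiquitinates synphilin-1, fell by 1.06 in Fip200 KO cells (limma adjusted p = 0.0748), a call lost without any 1 library except Fip200 KO replicate 3 (−1.12 to −0.96). In Atg5 KO and Atg7 KO cells Siah1a was −0.86 and −0.91 (limma adjusted p = 0.0184 and 0.0542, and 0.266 and 0.882 with the prefix term), short of the fold required. All KO libraries lay at 7.91 to 15.5 RPKM, below the 18.8 to 21.7 of control.

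The closest relatives of Fhl1 were expressed at higher levels and were not called in any comparison. Fhl2 lay between 27.0 and 62.9 RPKM and Fhl3 between 18.0 and 32.3 over the 12 libraries. Fhl3 lay above control in every KO library, with log2 differences of 0.46, 0.49 and 0.50 that stayed below the fold required, and Fhl2 had differences of 0.30, −0.05 and 0.41, not called. Fhl4 did not pass 0.246. Of 42 LIM-domain genes 38 were listed and 37 tested. In Fip200 KO 0 rose and 2 fell, and in Atg5 KO and in Atg7 KO 2 rose and 4 fell, with medians of 0.13, 0.09 and −0.01. These counts lie near the shares of all tested genes that rose (0.347%, 4.31% and 3.29%) or fell (1.64%, 6.94% and 6.81%), and nothing is read from them.

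Crip1 and Lims2 fell in all 3 groups, as 1.2% of genes tested in all 3 comparisons did. Crip1, which encodes a small cysteine-rich LIM protein, had RPKM values of 41.4, 29.2 and 36.5 in control, 0.677, 2.44 and 1.73 for Fip200 KO, 13.4, 13.9 and 0.621 for Atg5 KO and 1.42, 2.21 and 4.71 for Atg7 KO libraries. It fell by 4.18 for Fip200 KO (limma adjusted p = 0.0106), fell by 2.56 for Atg5 KO (limma adjusted p = 0.0804) and fell by 3.58 for Atg7 KO cells (limma adjusted p = 0.0072). Its call was lost in Fip200 KO without control replicate 2 or 3 (−4.31 and −4.16) and in Atg5 KO without any 1 control library (−2.45, −2.69 and −2.54), and with the prefix term the Atg7 KO value was 0.20. Lims2, a partner of integrin-linked kinase, had 3.78, 9.52 and 10.1 in control, 1.55, 1.35 and 0.243 for Fip200 KO, 0.399, 0.403 and 0.0274 for Atg5 KO and 0.343, 0.292 and 0.552 for Atg7 KO libraries. No KO library overlapped with control. In Atg5 KO, Lims2 passed the filter only through the 3 control libraries, as did Adcy9 and Acap1 in Atg5 KO and Itgb5 in Atg7 KO cells, and each was also called without the filter (limma adjusted p = 0.00744, 0.00587, 0.0125 and 0.0914). Lims2 fell by 2.44, 3.35 and 3.11 (limma adjusted p = 0.098, 0.00477 and 0.00871), and the Fip200 KO call was lost without any 1 library except Fip200 KO replicate 3 (−2.87 to −2.21). Pdlim4 fell by 1.51 and 2.44 in Atg5 KO and Atg7 KO cells (limma adjusted p = 0.0164 and 0.0202, and 0.374 and 0.675 with the prefix term), and Ajuba rose by 1.05 and 1.54 (limma adjusted p = 0.0516 and 0.0247). Leaving out control replicate 2 or 3 or Atg5 KO replicate 1 or 3 ended the call of Ajuba in Atg5 KO (0.76 to 1.08), and control replicate 3 that in Atg7 KO cells (1.47).

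Over all lists together, with each gene counted once, 4 of 120 tested genes were called in Fip200 KO (0 higher, 4 lower), 27 of 122 for Atg5 KO (11 higher, 16 lower) and 20 of 121 for Atg7 KO cells (6 higher, 14 lower), beside 1.98%, 11.2% and 10.1% of all tested genes. The lists were chosen with earlier results of these data known, so no excess is read from these counts. Without control replicate 2 they were 0, 13 and 11 and without control replicate 3 they were 0, 14 and 8. The Fip200 KO count was 1 without control replicate 1 and 2 and 9 without Fip200 KO replicates 1 and 3, and the Atg7 KO count was 13 without Atg7 KO replicate 1. With median-of-ratios scaling the Atg5 KO split was 7 higher and 19 lower. With the prefix term 1, 11 and 1 were called. These were Crip1 for Fip200 KO (−4.40, limma adjusted p = 0.0355) and Uchl1 for Atg7 KO cells (4.10, limma adjusted p = 0.059), with Uchl1 (3.56, limma adjusted p = 0.00604), Lims2, Pde1b, Itgb5, Mertk, Prkaca, Pde2a, Pde4b, Prkg2, Pdlim2 and Ltbp1 in Atg5 KO cells. All other calls of list genes named above were lost with the prefix term.

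Position was not used to choose the 5 genes, so the 5 nearest tested genes on each side of each, in RefSeq gene order, were counted. Of these 50 neighbours 2 rose and 0 fell in Fip200 KO, 3 rose and 4 fell in Atg5 KO, and 5 rose and 4 fell in Atg7 KO cells, with medians of −0.16, −0.03 and −0.02. Over all tested genes 0.347%, 4.31% and 3.29% rose and 1.64%, 6.94% and 6.81% fell in these comparisons. None of the 10 neighbours of Gulp1 was called in any comparison. Next to Pde1a, Itga4, the alpha 4 integrin gene, had RPKM values of 2.60, 1.13 and 1.16 in control, 14.3, 6.25 and 8.68 for Fip200 KO, 4.26, 3.53 and 4.56 for Atg5 KO and 8.89, 11.9 and 9.35 for Atg7 KO libraries. It rose by 2.26, 1.18 and 2.36 (limma adjusted p = 0.0671, 0.0229 and 0.00912). Near Fhl1, Rbmx, an X-linked RNA-binding protein gene, had 3.08, 1.29 and 1.68 in control, 7.07, 5.77 and 6.50 for Fip200 KO, 6.26, 5.65 and 11.1 for Atg5 KO and 8.05, 8.21 and 8.51 for Atg7 KO libraries. It rose by 1.52, 1.70 and 1.86 (limma adjusted p = 0.0908, 0.0139 and 0.0127). Both genes were higher in all 9 KO than in all control libraries, as were 6% of the 11608 genes tested in all 3 comparisons. Both were also called higher in each, as were 25 genes, 0.215% of those tested. The Fip200 KO calls of both were lost without control replicate 2 or 3 or Fip200 KO replicate 1 or 2 (Itga4 1.95 to 2.52, Rbmx 1.31 to 1.60), and the prefix term ended the Fip200 and Atg7 KO calls (Itga4 1.65 and 2.46, Rbmx 0.95 and 1.30). Nnat, 5 tested genes from Tgm2, rose by 1.64 and 1.04 in Atg5 KO and Atg7 KO cells (limma adjusted p = 0.0257 and 0.0564), while Sestd1 near Pde1a (−1.09 and −1.07, limma adjusted p = 0.0218 and 0.028) and Ints6l near Fhl1 (−1.06 and −1.01, limma adjusted p = 0.0136 and 0.0451) fell in both. Leaving out control replicate 2 ended each of these calls except Nnat in Atg5 KO cells, with values of −0.90 and −0.89 for Sestd1, −0.90 and −0.85 for Ints6l and 1.04 for Nnat in Atg7 KO. Sestd1 also lost its call without Atg5 KO replicate 3 (−0.90) in Atg5 KO and without control replicate 3 (−1.04) in Atg7 KO cells. In Atg7 KO cells Ints6l lost it without control replicate 1 (−0.97) or Atg7 KO replicate 2 (−0.85), and Nnat without control replicate 3 (0.96) or Atg7 KO replicate 1 (1.07) or 3 (0.76).

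Xist RNA, which coats the inactive X chromosome in female cells, differed between the libraries in a way that ran beside several of the 5 genes, a comparison chosen after its values were seen. Its RPKM was 12.7, 0.538 and 0.0178 in control, 53.4, 65.4 and 49.7 for Fip200 KO, 56.1, 50.9 and 36.2 for Atg5 KO and 58.1, 0.0468 and 50.5 for Atg7 KO libraries. The 4 libraries with the least Xist were the 3 controls and Atg7 KO replicate 2. The same 4 libraries were the 4 lowest for Tgm2, Gulp1 and Fhl1. For Pde1a and Sncaip the controls were the 3 lowest, but Atg7 KO replicate 2 was the highest of all 12. The low place of the 3 controls follows from the choice of the genes, so only the place of Atg7 KO replicate 2 was free. Fhl1 is on the X chromosome, where 378, 377 and 378 tested genes had a median log2 difference of −0.29, −0.36 and −0.29 beside 0.02, 0.06 and −0.01 over all genes. The part of this difference between libraries in the levels of the 5 genes was not tested.

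**Figure D5:**
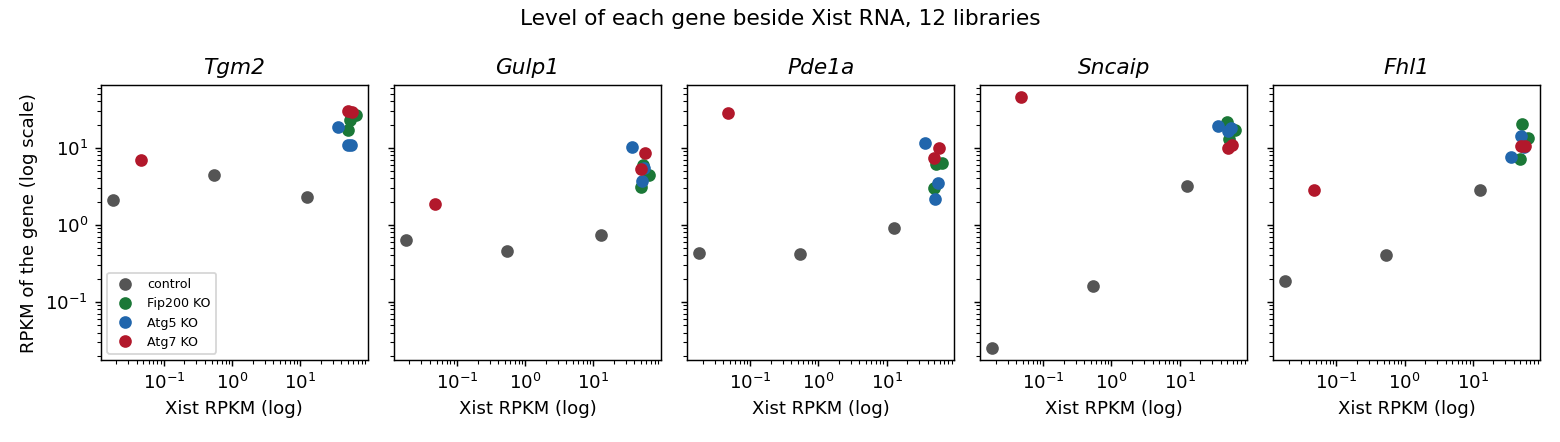
RPKM of each of the 5 genes (vertical axis, log scale) against Xist RPKM (horizontal axis, log scale) in the 12 libraries, coloured by group. Atg7 KO replicate 2, at 0.0468 RPKM of Xist, lies near the controls for Fhl1 (2.85) and at the top for Pde1a (28.3) and Sncaip (44.9).

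Across the 12 libraries, the genes whose log2 levels were most like each of the 5 were listed among 11011 genes with a mean RPKM of at least 1. The points share 4 groups, 3 name prefixes and the libraries themselves, so the correlations are given as descriptions. Group means were not removed, so the shift from control that chose the 5 genes is part of each correlation. For Tgm2 they were Klhl5 (r = 0.961), Abhd10 (0.958), Rad23b (0.944), Naaladl1 (0.94) and Sh2b1 (0.936). For Gulp1 they were Cc2d2a (r = 0.975), Zfp758 (0.964), Sepsecs (0.964), Fancl (0.954) and Vps13a (0.952). For Pde1a, whose best matches were weaker, they were Fam57b (r = 0.928), Cst6 (0.926), BC029722 (0.915), Pim3 (0.893) and Adm (0.891). For Sncaip they included Mrpl16 (r = 0.953), D830026I12Rik (0.949), Kif26a (0.948) and Borcs7 (0.941). For Fhl1 they were Map4k2 (r = 0.952), 2900026A02Rik (0.95), Zfp946 (0.945), Arhgap25 (0.944) and Coa6 (0.943). No gene appeared in more than 1 of these 5 lists, and none of the 5 genes was among the matches of another.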

How the data were processed

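RNA of 12 libraries was measured by strand-specific sequencing, which the authors aligned with TopHat2 and tested with edgeR. The genome build and annotation are not given in the sources used here. The authors deposited RPKM values per gene and library in 3 tables with the same control columns. The deposited tables also hold the authors' mean signal per gene, the normalized reads averaged over libraries, and their own fold changes (log2), ratios and p-values, none of which was used. Low values showed that the deposited RPKM values are whole read numbers scaled by gene length and depth, and reads were recovered for 14851 of 14851 genes (tolerance 0.02 reads, 20 genes without reads). They gave depth and were not tested.

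Tests used limma 3.58.1 in R 4.3.3 on log2(RPKM + 0.5), with a trend in the variance and Benjamini-Hochberg adjustment over all tested genes. A gene was tested where 3 or more libraries of a comparison reached an RPKM of 0.5. It was called where the adjusted p did not exceed 0.1 and the log2 difference reached 1 in size, thresholds taken from the authors' methods. KO against control used 6 libraries, and KO against KO used 12. On data simulated from these genes 158 of 200 changed genes were found, 0 in the wrong direction, with 16 false calls among the 11922 genes. The changed genes moved by 2 on the log2 scale and had a mean log2(RPKM + 0.5) above 1. The simulated libraries varied independently and had no prefix effect, so these figures do not carry over to smaller changes, low genes or such effects. The members and lists were chosen with earlier results of these data known. Named genes were the members, the targeted genes, relatives, list genes called in all 3 comparisons or among the 4 with the largest mean change, neighbours called in at least 2, and the 5 best-correlated genes of each member. Alternatives were another pseudocount, no filter, median-of-ratios scaling, no trend, the name prefix, a replicate block, other fits and leaving out each library. A few genes that these rules name are not reported here.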

Additional observations from a re-analysis of the deposited data

How the results depend on the processing

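Of 210 recomputed differences of the 5 genes from control, whose sign follows from the choice of the genes, 199 lay within 1 SD of the reported value. The 11 others moved with the pseudocount or the name prefix. With a pseudocount of 1 Gulp1 in Fip200 KO was 1.74. With 0.1 the Fip200 KO values of Gulp1, Pde1a and Sncaip were 2.67, 2.92 and 5.16, and the Atg5 KO values of Gulp1 and Sncaip 3.09 and 5.23. With the prefix term Sncaip and Fhl1 were 2.23 and 1.95 in Fip200 KO, and Gulp1, Pde1a and Fhl1 were 1.15, 1.95 and 3.87 in Atg7 KO. Between KO groups 0 of 300 recomputed differences were called (limma adjusted p 0.328 to 1). The prefix term turned the sign of Fhl1 in Atg5 KO (2.05) and in Atg7 KO (1.92) against Fip200 KO, of Gulp1 in Atg7 KO against Fip200 KO (−0.81) and of Tgm2 in Atg7 KO against Atg5 KO (−0.036), and median-of-ratios scaling that of Sncaip in Atg7 KO against Atg5 KO (0.0195). The prefix term also turned the differences from control of Lrp1 (1.25) and Pde7b (−0.066) in Fip200 KO, of Tgfb1 (0.085) and Fhl2 (0.21) in Atg5 KO and of Crip1 in Atg7 KO (0.20). The cause of these changes was not tested. Leaving out 1 library, differences from Fip200 KO spanned 0 for Pde1a (−0.72 to 0.38), Sncaip (−0.12 to 0.24) and Fhl1 (−0.65 to 0.081) in Atg5 KO and for Tgm2 (−0.59 to 0.43), Gulp1 (−0.39 to 0.57) and Sncaip (−0.66 to 0.39) in Atg7 KO, and those of Atg7 KO from Atg5 KO for Gulp1 (−0.79 to 0.18), Sncaip (−0.73 to 0.32) and Fhl1 (−0.84 to 0.0077). Differences from control spanned 0 for Lrp1 (−1.29 to 0.42), Sncg (−1.74 to 0.83), Ajuba (−0.076 to 1.24), Acap1 (−0.43 to 0.21) and Sdc2 (−0.54 to 0.47) in Fip200 KO, Fhl2 (−0.25 to 0.15) in Atg5 KO, and Sncg (−2.42 to 0.52) and Abca1 (−0.29 to 0.18) in Atg7 KO.

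The 234, 1331 and 1191 genes called in Fip200, Atg5 and Atg7 KO became 47, 663 and 38 with the prefix term. The Fip200 KO count was 146 without the filter, 608 in one fit of 12 libraries and 0 to 598 leaving out 1 library, with 0 calls by limma without control replicate 2 or 3 (1103 and 913 genes at an unadjusted p under 0.05) 89 without control replicate 1, and 143, 41 and 598 without Fip200 KO replicates 1, 2 and 3. The Atg7 KO count was 576 to 1514, the lowest values being 730 and 576 without control replicates 2 and 3 and 768 without Atg7 KO replicate 1. Genes called between KO groups were 1, 2 and 1 with the prefix term, and 1 in 6 libraries for Atg7 KO against Fip200 KO and for Atg7 KO against Atg5 KO. Leaving out 1 library they were 0 to 300, 0 to 402 and 0 to 2, the highest of the first pair of ranges without Fip200 KO replicate 3. Called list genes (4, 27 and 20) were 1, 11 and 1 with the prefix term, 11 and 16 in one fit of 12 libraries for Fip200 and Atg5 KO, and 0 to 9, 13 to 30 and 8 to 25 leaving out 1 library. Equal replicate numbers did not mark paired libraries, since deviations from group means correlated at −0.46 to 0.19 (median −0.094) in 18 same-numbered pairs and at −0.333 to 0.41 (median 0.044) in 36 others. With the replicate number as a block, 93 genes and 1 list gene were called in Fip200 KO. With 3 libraries a group and no control library named Yang, small differences could not be resolved, and for Atg7 KO the prefix and the knockout could not be told apart within a prefix.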
